A study of Heterocephalus glaber and Cavia porcellus and Spalacopus cyanus with 7 samples.

Results

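The cytosolic ribosomal protein genes, which encode the protein part of the ribosomes of the cytoplasm, were described in oocytes of the naked mole-rat and the guinea pig. Members were taken by gene symbol alone: names that start with Rps or Rpl followed by a number, with the usual paralog endings, plus Rplp0, Rplp1, Rplp2 and Rpsa, and without the Rps6k kinases. No measured value entered this choice. It found 79 members among 26623 entries of the naked mole-rat tables, 31 of the small and 48 of the large subunit, and 78 members among 25603 entries of the guinea pig table. Both species had an entry for 76 of the 81 symbols. Rpl17, Rpl39 and Rps10 were listed by name only in naked mole-rat, and Rpl30 and Rps3a only in guinea pig.

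The naked mole-rat group held fully grown and late growing oocytes of 5 females, aged 1 to 8 years, with 1 library for each female. The guinea pig group was 1 library that merged oocytes of 3 females, aged 6 to 9 months, so it has no replicate. The animals carried no named genetic change and received no treatment, and a further rodent, the coruro, was not analysed here. Surrounding cumulus cells were removed by pipetting. Total RNA was depleted of ribosomal RNA and sequenced with a directional kit. The labels of naked mole-rat replicates 2 and 3 carry the letter Y and those of replicates 4 and 5 the letter O; the labels do not say what the letters stand for, and replicate 1 has neither letter.

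A cytosolic ribosome consists of a small subunit, which reads the mRNA, and a large subunit, which joins the amino acids, and nearly all of its proteins are needed in equal number. In mammals their mRNAs begin with a run of pyrimidines, the 5′ TOP element, through which the kinase mTORC1 and the protein LARP1 adjust their translation together. Growing mouse oocytes make and store ribosomes for the embryo. The level of an mRNA says nothing by itself on how much of the protein is made.

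Depth was between 13512223 and 29561451 counts in the naked mole-rat libraries and 24515642 counts in the guinea pig library, so that 3 counts equalled 0.102 to 0.222 CPM (the counts of a gene for each 1000000 counts of its library). Oocyte marker genes differed in level: Zp3, a zona pellucida protein, lay between 709 and 2323 CPM in naked mole-rat and was at 2228 CPM in guinea pig, the transcription factor gene Figla lay between 6.0 and 17.9 CPM and was at 34.3 CPM in guinea pig, and Tle6 was at 0 in replicates 2 to 5 and under 1 CPM elsewhere. Replicate 1 stood apart. Its 15 oocyte markers summed to 5248 CPM, against 8865 to 10955 CPM in replicates 2 to 5 and 11559 CPM in guinea pig. Its 18 granulosa cell markers, genes of the cells that surround the oocyte, summed to 6754 CPM, against 1024 to 2089 CPM in replicates 2 to 5 and 817 CPM in guinea pig. Of the 14 oocyte markers with at least 10 counts in every library, 2 were highest in replicate 1. They were Zfp36l2, at 363 CPM beside 96.0 to 132 CPM, and Zar1, at 73.8 CPM beside 36.8 to 53.9 CPM. Nobox, at 37.2 CPM, lay inside the range of replicates 2 to 5. Replicate 1 also came in a table of its own.

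Ribosomal protein genes took 2.78, 0.578, 0.759, 0.848 and 1.14% of all counts in replicates 1 to 5, in that order. The mean was 1.22% ± 0.895 (SD, n = 5), and 0.832% ± 0.236 (SD, n = 4) without replicate 1. Replicate 1 was thus 3.34 times the mean of the other libraries and 2.43 times the highest of them. The median member was at 308 CPM in replicate 1, and at 49.3, 61.6, 80.4 and 114 CPM in replicates 2 to 5. The guinea pig library gave the family 0.705% of its counts, with an exact 95% interval of 0.702 to 0.709%, which covers counting error only. That value lay inside the range of naked mole-rat replicates 2 to 5.

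**Figure D1:**
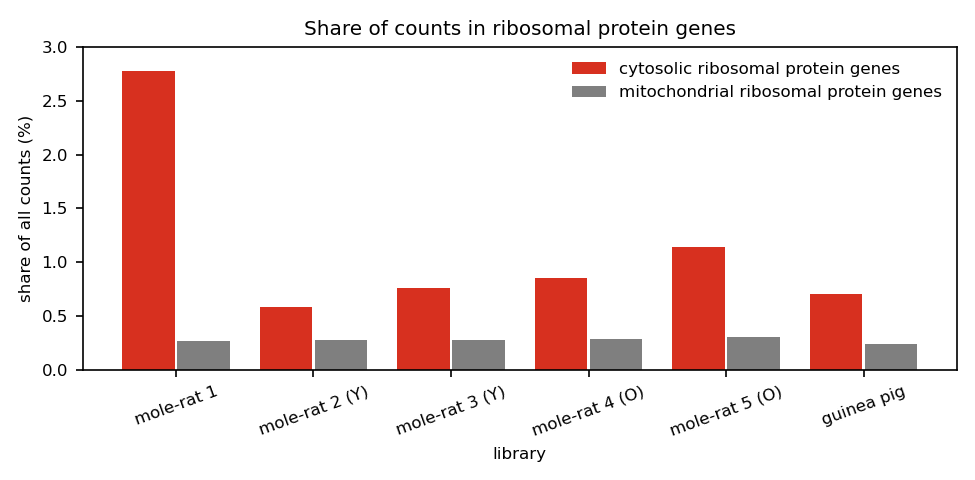
Bars give the share of all counts, in percent, in cytosolic (red) and mitochondrial (grey) ribosomal protein genes for each of the 6 libraries. The red bar of naked mole-rat replicate 1 reaches 2.78%, while the other red bars stay between 0.578% and 1.14%; each bar is 1 library, so none has an error bar.

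Most of the family was detected throughout. In every naked mole-rat library 77 of the 79 members had at least 1 CPM, 69 had at least 10 CPM and 19 had at least 100 CPM. Rpl3l and Rpl10l were under 1 CPM in every library, and Rpl26l1 was under 10 CPM in every library. Large subunit genes took the larger part of the family's counts: the counts of small subunit members divided by those of large subunit members gave 0.656, 0.525, 0.559, 0.557 and 0.659 in replicates 1 to 5 (mean 0.591 ± 0.062, SD, n = 5). The ratio varied far less than the level of the family, and replicates 1 and 5 had nearly the same value. In guinea pig it was 0.737, but over a different set of genes. Rps3a and Rpl30 were counted only in guinea pig, and Rpl17, Rpl39 and Rps10 only in naked mole-rat. The species' ratios are therefore not directly comparable.

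Rpl6, a large subunit protein, took the most counts on average (551 ± 60.5 CPM, SD, n = 5). CPM is not divided by transcript length, so the order of genes by CPM is an order of counts and not of mRNA molecules. Next came Rpl4, which lines the tunnel through which the new protein leaves (431 ± 290 CPM), Rpl7a (423 ± 210 CPM), and Rps2, a small subunit protein near the mRNA entrance (391 ± 481 CPM). Rpsa, the small subunit protein also known as the laminin receptor (339 ± 193 CPM), Rplp0, Rpl11, Rps6, Rps12 and Rpl7 completed the 10 members with the most counts. At the low end stood paralogs with the ending l: Rpl3l, Rpl10l, Rpl26l1, Rps27l and Rpl22l1.

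The family's members differed between females more than most genes did. The SD of log2(CPM + 1) over the 5 libraries had a median of 1.06 for the 77 members with at least 10 counts in every library, beside 0.543 for all 11710 such entries. Without replicate 1 the medians were 0.603 and 0.433. Replicate 1 was the highest library for 75 of the 79 members. Among the 77 members tested it was above every other library for 74, beside 37.8% of all entries, and more than 2 times the next library for 54, beside 16% of all entries. The median log2 ratio of replicate 1 to the mean of the others was 1.88 for these members and 0.034 for all entries.

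**Figure D2:**
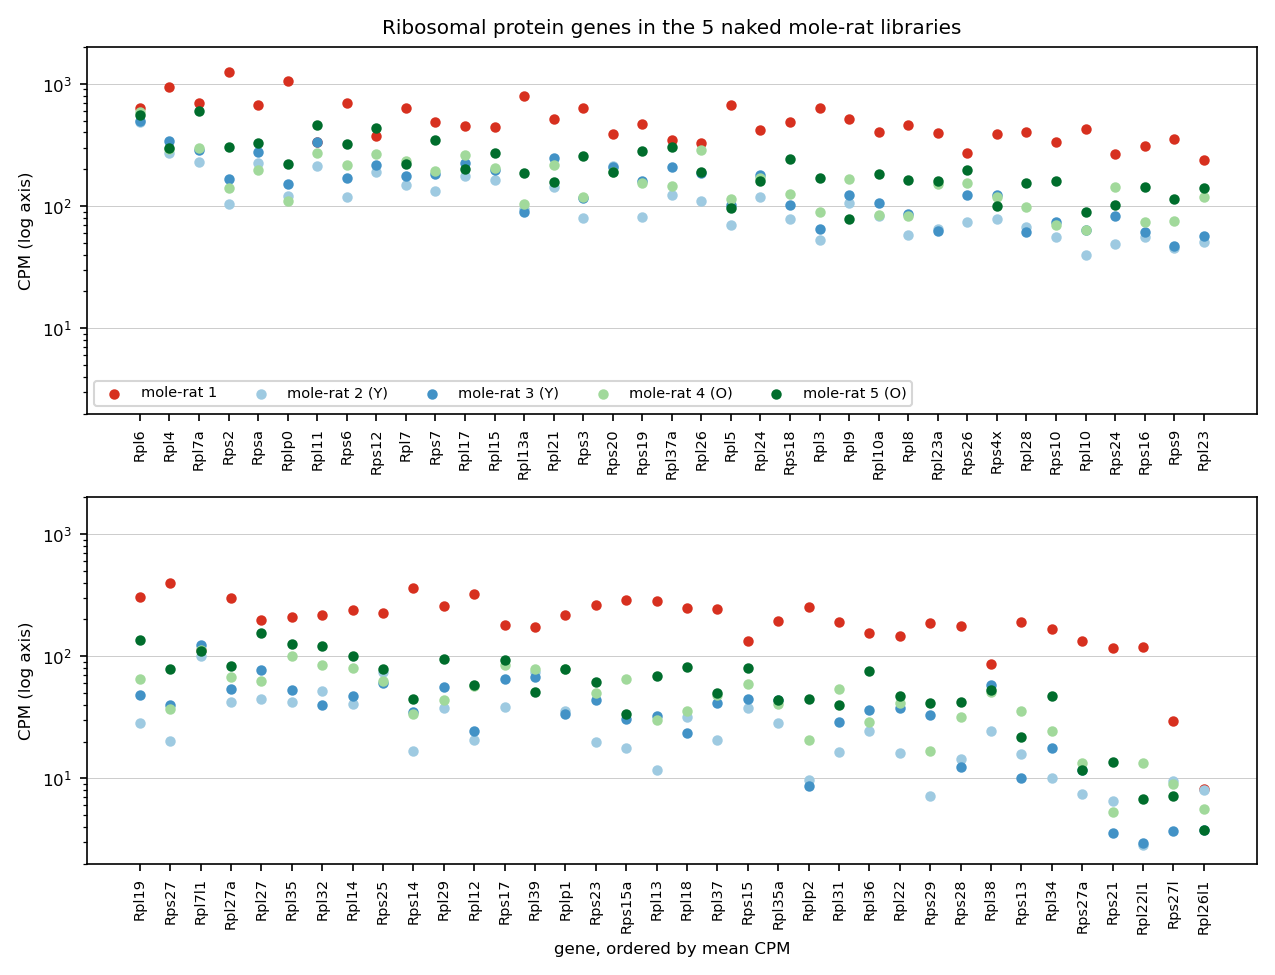
Each column is 1 of 73 genes, ordered by mean CPM, and each point 1 of the 5 naked mole-rat libraries on a log axis of CPM; Rpl3l and Rpl10l, with libraries at 0, are not among them. Red points (replicate 1) lie on top in nearly every column, and the columns of Rpl6 and Rpl7l1 are the tightest.

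**Figure D3:**
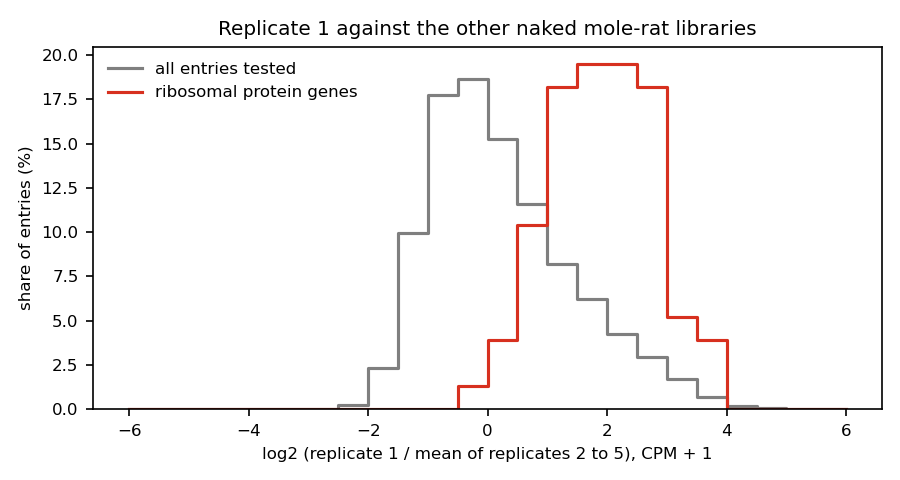
The x axis is the log2 ratio of replicate 1 to the mean of replicates 2 to 5 (CPM + 1), in bins, and the y axis the share of entries in percent. The red line holds the 77 members with at least 10 counts in every library (median 1.88) and the grey line all 11710 such entries (median 0.034).

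The summed markers of granulosa, immune and stroma cells were also highest in replicate 1. The oocyte sum was lowest there, although Zfp36l2 and Zar1 on that list were highest there. The erythroid sum lay inside the range of the others. Of the 17 granulosa markers with at least 10 counts in every library, 14 were highest there. Amh was at 1203 CPM beside 6.99 to 66.5 CPM, and Inha at 198 CPM beside 0.550 to 32.9 CPM. Has2 went the other way and was lowest there, at 130 CPM beside 227 to 464 CPM. Star and Tnfaip6 were not highest there either. Summed immune markers were at 115 CPM beside 7.0 to 27.1 CPM, and summed stroma markers at 231 CPM beside 12.0 to 47.8 CPM. Single genes made up much of these sums in replicate 1: Cd74 was at 98.6 CPM and Col1a1 at 126 CPM. The immune markers Ptprc and Tyrobp and the stroma markers Dcn and Lum were not highest in replicate 1. The defining immune genes C1qb and Laptm5 had no counts in replicates 2 to 5 and were below 1 CPM in replicate 1. Summed erythroid markers were at 4.0 CPM in replicate 1 and at 0.321 to 4.50 CPM in the others. The part of these cells in the result was not tested. In such bulk libraries, more cells of a type and more RNA per cell cannot be told apart.

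The 3 genes of the acidic stalk of the large subunit, which receives the elongation factors, varied to different degrees. Rplp0, the base of the stalk, was at 1059, 120, 152, 111 and 221 CPM in replicates 1 to 5. Rplp1 was at 216, 35.6, 33.8, 78.5 and 79.0 CPM, and its partner Rplp2 at 254, 9.75, 8.62, 20.8 and 44.2 CPM. Rplp2 had an SD of 1.94 on the log2 scale, the second largest of the family after Rpl22l1 (2.04), while Rplp0 (1.33) was nearer to the family's median of 1.06 and Rplp1 (1.08) close to it. Rplp1 and Rplp2 form dimers on Rplp0 in the ribosome; the counts of Rplp2 were higher than those of Rplp1 in replicate 1 and lower in the other 4 libraries.

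Rpl5 and Rpl11 carry the 5S ribosomal RNA into the large subunit together, and in human and mouse cells also bind the p53 regulator MDM2. Rpl5 was at 673, 69.3, 102, 113 and 96.7 CPM in replicates 1 to 5. Rpl11 was at 331, 214, 336, 272 and 461 CPM. Replicate 1 therefore lay far above the other libraries for Rpl5 but within their range for Rpl11, although both proteins enter the ribosome as 1 particle.

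Other large subunit members with known roles mostly followed the family. Rpl10, which is added late and prepares the subunit for joining, was at 426, 39.8, 63.9, 64.2 and 89.5 CPM. Rpl13 was at 281, 11.8, 32.4, 30.1 and 68.9 CPM, one of the 5 largest spreads. Rpl38, needed in mouse for the translation of certain Hox mRNAs, was at 86.2, 24.5, 57.7, 51.1 and 52.8 CPM, a narrower span with replicate 2 lowest. Rpl4 was at 948, 271, 340, 295 and 300 CPM, so that replicates 2 to 5 were close together and replicate 1 was alone.

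In the small subunit, Rps2 spanned the widest range in CPM, at 1241 in replicate 1 and 104, 167, 139 and 304 in replicates 2 to 5. Rps6, whose protein is the substrate of the S6 kinases downstream of mTORC1, was at 700, 119, 170, 218 and 320 CPM. Rps3, at the mRNA entrance, was at 637, 80.2, 115, 118 and 255 CPM. All 3 were highest in replicate 1, next highest in replicate 5 and lowest in replicate 2. Rps19, which is often mutated in Diamond-Blackfan anaemia in humans, was at 466, 81.1, 161, 153 and 283 CPM, with the same order at both ends. Rpsa was at 674, 224, 277, 198 and 325 CPM, with replicate 4 lowest.

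A few small subunit genes were low in replicates 2 to 5 and high in replicate 1 alone. Rps27a, which is made as a fusion with ubiquitin, was at 133 CPM in replicate 1 and at 7.44, 11.7, 13.4 and 11.8 CPM in the others. Rps21 was at 117 CPM in replicate 1 and at 6.49, 3.55, 5.28 and 13.6 CPM in the others. Rps14 was at 361 CPM in replicate 1 and between 16.7 and 44.9 CPM in the others. Rps29 was at 188 CPM in replicate 1, with a span of 7.18 to 41.0 CPM in the others. Replicate 1 was above the range of replicates 2 to 5 for all of these genes, as it was for 75 of the 79 members.

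Other members had a small spread. Rpl7l1, a relative of Rpl7 that takes part in the assembly of the large subunit in human cells, was at 112, 101, 124, 113 and 110 CPM, with replicate 3 highest. Its SD on the log2 scale was 0.103, the smallest among members with counts in every library. Rpl6 was at 631, 489, 494, 584 and 558 CPM, with an SD of 0.158. Rps12 varied more, at 372, 189, 217, 265 and 433 CPM. Rps20 was at 212, 207, 189 and 189 CPM in replicates 2 to 5, and replicate 1 stood above them at 391 CPM. Rpl7l1, Rpl11, Rps12 and Rpl10l were the 4 members for which replicate 1 was not the highest library.

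Most of the spread was shared by the members. When each gene's counts were divided by those of the whole family in the same library, the median SD on the log2 scale over the 77 members fell from 1.07 to 0.469, and the SD became smaller for 71 of them. Within the family the shares that rose most in replicate 1 were those of Rpl22l1, Rps21, Rplp2, Rps27a and Rps14. The shares that fell most were those of Rpl7l1, Rpl11, Rpl6, Rps12 and Rpl26l1. Among replicates 2 to 5 the members also moved together: replicate 5 was the highest of these 4 for 55 of all 79 members, and for 54 of the 77 tested, beside 40.3% of all entries. Replicate 2 was the lowest of all 5 libraries for 58 of the 77 tested, beside 20.1% of all entries. Replicate 1 was highest, with a gap to the next library of more than 0.71 of the range, for 46 of the 77, beside 11.9% of all entries.

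Paralogs did not keep a constant ratio to the genes they resemble. Rpl22l1, which can replace Rpl22 in mouse ribosomes, had 81.4% as many counts as Rpl22 in replicate 1 and 17.7, 7.84, 32.6 and 14.4% in replicates 2 to 5. Rpl22l1 itself was at 119 CPM in replicate 1 and at 2.86, 2.97, 13.4 and 6.80 CPM in the others. Rpl7l1 went the other way, with 17.5% of the counts of Rpl7 in replicate 1 and 48.8 to 70.1% in the others, since Rpl7 was high in replicate 1 and Rpl7l1 was not.

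Rps27l had 7.46% of the counts of Rps27 in replicate 1 and 47.2, 9.36, 24.3 and 9.09% in replicates 2 to 5. Rpl26l1 had between 1.96 and 7.24% of the counts of Rpl26. Rpl10l, a copy of Rpl10 used in mouse testis, was between 0 and 0.778 CPM, and Rpl3l, the striated muscle relative of Rpl3, had 2 counts in replicate 1 and none elsewhere. Near-identical copies and processed pseudogenes are common for ribosomal protein genes. The sources used here do not say how reads with several matches were counted, so the split between a gene and its copies is uncertain.

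**Figure D4:**
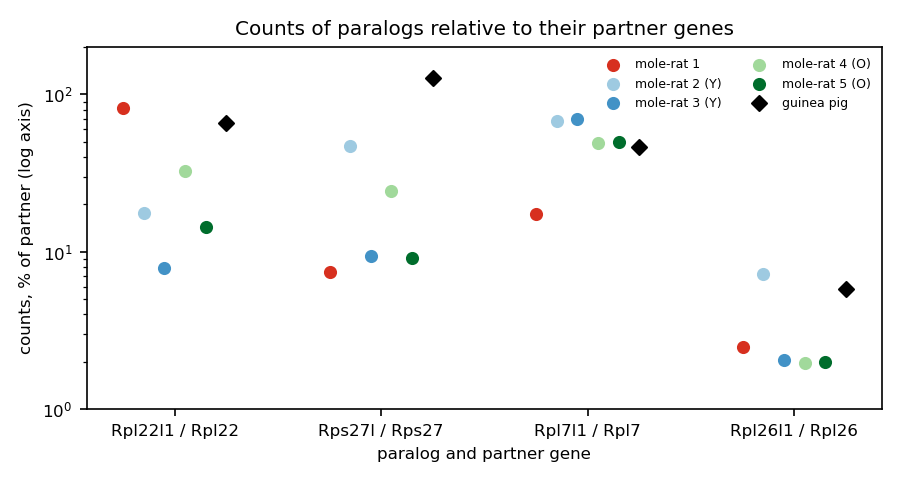
Points give the counts of a paralog as a percent of those of its partner gene on a log axis, for 5 naked mole-rat libraries (circles) and the guinea pig library (diamond). Replicate 1 is highest of the circles for Rpl22l1 (81.4%) and lowest for Rpl7l1 (17.5%).

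Genes of the same pathway outside the family did not all share its pattern. The 75 mitochondrial ribosomal protein genes, which serve the separate ribosome of the mitochondrion, summed to 2682, 2704, 2747, 2815 and 3020 CPM in replicates 1 to 5. The sum was thus lowest in replicate 1, though the median gene was not lower there. Of the 74 that passed the count limit, 37 were highest in replicate 1, beside 37.8% of all entries. Their median log2 ratio of replicate 1 to the mean of the others was 0.39, beside 0.034 for all entries. The 32 translation factors summed to 17822 CPM in replicate 1 and to 11716 to 13779 CPM in the others. Of these, 21 were highest in replicate 1, beside the same 37.8%, with a median log2 ratio of 0.56. Rack1, a scaffold protein on the small subunit, was at 611 CPM in replicate 1 and at 91.0, 79.5, 78.9 and 175 CPM in the others. Fau, whose protein is a fusion that releases a ribosomal protein, varied less, with a mean of 184 ± 58.5 CPM (SD, n = 5).

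Libraries with the letters Y and O, 2 of each, were compared in edgeR's quasi-likelihood test. None of the 78 members tested passed an adjusted p of 0.05 (smallest adjusted p 0.9998), and neither did any of the 15079 entries tested, which is 0% in each direction. In simulated data of the same design, this test recovered 2 of 67 genes changed 2-fold and 23 of 67 changed 4-fold. The lack of calls therefore does not show equal levels. At an unadjusted p under 0.05 there were 18 members, beside 4.69% of all entries. DESeq2 called 0 of 78 members as well. Of its 16853 entries with an adjusted p, 68 were called higher and 3 lower in O. At an unadjusted p under 0.05 DESeq2 had 19 members and 1129 of all entries. No share of all entries was set beside these DESeq2 counts, so they do not compare the members with other genes. The smallest DESeq2 adjusted p of a member was 0.093. The median log2 difference of O against Y was 0.64 over the members and 0.053 over all entries, and 70 of the 78 members had a positive value. No mitochondrial ribosomal protein gene and no translation factor was called either, and their median log2 differences were 0.107 and -0.011. The 17 granulosa markers tested had a median of 1.26, above that of the members, with none called.

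Both O libraries were above both Y libraries for 43 of the 77 members with at least 10 counts in every library, beside 20.2% of all such entries, and both below for 1 member, beside 13.4%. Rpl23a, a large subunit protein near the exit of the tunnel, ranked first among the members, but not among all entries, in the edgeR test. It was at 65.0 and 62.3 CPM in Y and at 151 and 159 CPM in O (log2 difference 1.16, SE 0.34, edgeR adjusted p = 0.9998). Leaving out replicate 4 raised the members called from 0 to 10, all higher in O, with Rps6, Rpl3 and Rps18 among them. Of all entries, 0.858% were then called higher and 2.19% lower in O. That fit compares replicate 5 alone with both Y libraries, as if replicate 5 varied like them. Granulosa markers summed to 1024 and 1212 CPM in Y and to 1273 and 2089 CPM in O, with replicate 5 highest as for the family. Has2, a marker on that list, ran the other way, at 454 and 464 CPM in Y and at 366 and 227 CPM in O. Their part in the members' difference was not tested.

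The guinea pig library was compared with the naked mole-rat range, for symbols with an entry in both species, as a description without a test, since it has no replicate. Separate genomes and gene models were used for the species, so a difference in a gene's CPM cannot be told apart from a difference in its annotation. The 76 shared members took 0.685% of the guinea pig counts, which was 0.584 of the naked mole-rat mean and 0.862 of the mean of replicates 2 to 5. Of 74 shared members tested, none was more than 4 times above the highest naked mole-rat library, beside 8.95% of all shared symbols. Only Rpl6 was more than 4 times below the lowest, beside 8.35% of all shared symbols.

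Rpl6 was at 122 CPM in guinea pig (95% counting interval 118 to 126), 0.249 of the lowest naked mole-rat library, just inside the limit. Rpl11 came next, at 78.8 CPM and 0.368 of the lowest library. Rps12 was at 75.9 CPM, 0.401 of the lowest. Rpl6 and Rpl11 were also among the 5 members with the smallest spread between the naked mole-rat libraries, leaving Rpl3l and Rpl10l aside. The limit is set from the lowest library, so a gene with a narrow range passes it more easily. Relative to the naked mole-rat mean, Rps27 (0.120), Rpl23 (0.182) and Rpl36 (0.184) were lower than Rpl6 (0.221).

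Guinea pig lay below every naked mole-rat library for 22 members, beside 29.1% of all shared symbols, and the same number lay below each of replicates 2 to 5, beside 32.9%. Among them were Rpl23, at 22.0 CPM beside 51.1 to 238 CPM, Rpl36, at 11.7 CPM beside 24.2 to 153 CPM, and Rps27, at 13.7 CPM beside 20.1 to 397 CPM. It lay above every library for 1 member, beside 37.2% of all shared symbols. The share of members below was thus near the background, and that of members above was under it.

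With replicate 1 left aside, guinea pig was above each of replicates 2 to 5 for 20 members, beside 46% of all shared symbols. All 3 stalk genes were among them: Rplp0 at 268 CPM, Rplp1 at 166 CPM and Rplp2 at 82.7 CPM, against highest values of 221, 79.0 and 44.2 CPM in those replicates. Rps27a was at 57.4 CPM, 4.27 times the highest of replicates 2 to 5, and Rps21 at 50.6 CPM, 3.73 times. Both were under replicate 1. In guinea pig, Rps27l had 128% of the counts of Rps27, Rpl22l1 66.0% of those of Rpl22, and Rpl7l1 46.0% of those of Rpl7. Rpl7l1 was at 106 CPM in guinea pig, inside the narrow naked mole-rat range.

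Of the symbols listed only in guinea pig, Rps3a had 3852 counts (157 CPM, 95% interval 152 to 162) and Rpl30 had 1035 counts (42.2 CPM, 39.7 to 44.9). Of those listed only in naked mole-rat, Rpl17 was at 262 ± 109 CPM, Rps10 at 138 ± 116 CPM and Rpl39 at 88.8 ± 48.9 CPM (SD, n = 5). No value in the other species was set beside them. Stroma markers summed to 390 CPM in guinea pig, above every naked mole-rat library, with Col3a1 at 228 CPM. Not every marker on that list was above: Col1a1, at 68.7 CPM, lay under its 126 CPM in naked mole-rat replicate 1. Pdgfrb, Tagln and Lum were not above every naked mole-rat library either. The part of the stroma markers in the species' values was not tested.

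**Figure D5:**
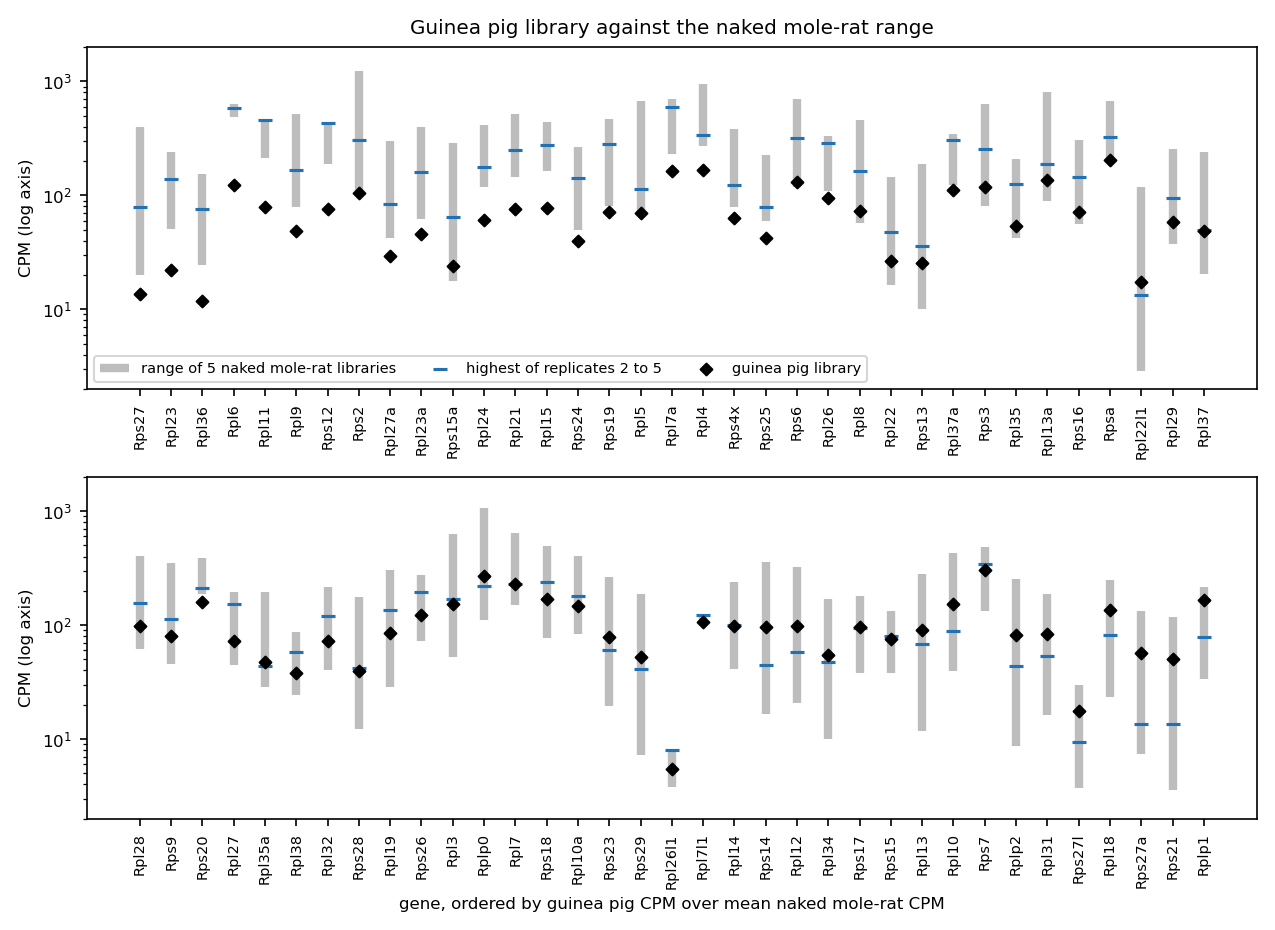
Grey bars span the 5 naked mole-rat libraries for each of 70 shared members, blue marks give the highest of replicates 2 to 5 and black diamonds the guinea pig library, all in CPM on a log axis; Rpl3l and Rpl10l are not among them. Genes run from the lowest to the highest ratio of guinea pig to mean naked mole-rat CPM; the diamond of Rpl6 lies far under its short bar.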

How the data were processed

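Oocyte RNA was measured in 5 naked mole-rat libraries and 1 guinea pig library. The deposited values are raw counts per gene, which the authors made by trimming with Trim Galore, mapping with HISAT2 to the HetGla_female_1.0 and Cavpor3.0 genomes and counting in SeqMonk. The submitters' processing notes name Trim Galore 0.6.1 and HISAT2 2.1.0, and the methods name other versions. The treatment of strand and of reads with several matches was not given in the sources used here. A further file, with 3 Dnmt3 sequences of the coruro, was not used.

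Counts were divided by the library total to give CPM, with a pseudocount of 1 before log2. The Y and O libraries were fitted in edgeR 4.0.16 in R 4.3.3 (quasi-likelihood test, TMM scaling, Benjamini-Hochberg adjustment over all entries tested), and with DESeq2 1.42.0 as an alternative. Ranks of replicate 1 used entries with at least 10 counts in every library. Guinea pig was compared by a 4-fold limit outside the naked mole-rat range, for shared symbols whose guinea pig count, or lowest naked mole-rat count, reached 100. Intervals are exact and cover counting error only. Each female is 1 library, and p-values measure the spread between these libraries. No pair of libraries agreed within sampling noise. Symbols that a spreadsheet had turned into dates numbered 26 for each species.

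The rule for members used gene symbols and no measured value. That rule, the members to be named and the lists of related genes and markers were still set with earlier results of these data known. Members were named by rule: the 10 highest and 5 lowest in mean CPM, the 5 largest and 5 smallest in SD of log2 CPM, those called in a comparison, those far from the other libraries, paralog pairs, the 5 largest changes of share each way in replicate 1, and 12 with set roles. Other members named in the comparison with guinea pig were chosen after their values were seen. Scripts were tested on simulated data. Promoter sequences were not used here, so the planned search for a pyrimidine run was not made. Some members and related genes are counted in the totals but not reported here by name, and they are left out of the plots by gene.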

Additional observations from a re-analysis of the deposited data

Results flagged for a closer look

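For 47 of the 79 members, and for the share of counts of the whole family, replicate 1 lay far above the other naked mole-rat libraries. The measure is the distance from the outermost library to the next, as a part of the distance from lowest to highest, and a gap above 0.71 was counted. Chance would pass about 5% of independent values, 3.95 of 79, but the members moved together and are not independent. Of the 77 members with at least 10 counts in every library 46 passed with replicate 1 highest, beside 11.9% of all such entries. All 47 were highest in replicate 1. The gap of the family's share of counts was 0.743.

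The widest gaps in the small subunit were those of Rps27a (0.952), Rps14 (0.918), Rps21 (0.911), Rps25 (0.885) and Rps20 (0.883). Next came Rps4x (0.857), Rps13 (0.855), Rps27 (0.844), Rps23 (0.83), Rps15a (0.827), Rps2 (0.825), Rps28 (0.822) and Rps29 (0.813). The gap was 0.776 for Rps27l, 0.773 for Rps9 and 0.733 for Rpsa.

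In the large subunit the gap of Rpl3l was 1, because its 2 counts were all in replicate 1. The widest gaps among members with counts in every library were those of Rpl5 (0.927), Rpl22l1 (0.909), Rpl35a (0.907), Rpl4 (0.898), Rplp0 (0.883), Rpl12 (0.874), Rpl10 (0.871), Rpl37 (0.867), Rpl13a (0.863) and Rplp2 (0.855). Next came Rpl27a (0.84), Rpl7 (0.833), Rpl3 (0.8), Rpl9 (0.798), Rpl24 (0.795), Rpl13 (0.788), Rpl31 (0.782), Rpl39 (0.774), Rpl34 (0.765), Rpl22 (0.759) and Rplp1 (0.753). Nearer to the limit were Rpl18 (0.74), Rpl29 (0.738), Rpl8 (0.737), Rpl28 (0.728), Rpl21 (0.714) and Rpl23a (0.711).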

How the results depend on the processing

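Under the alternatives, 6 recomputed values moved, and 85 changed by less than 1 SD, over libraries or over entries, or, for counts, by less than 1.5 times. The mean share of the family was between 0.832 and 1.38% with each library left out, and was lowest without replicate 1. The SD of that share over libraries was 0.895 with replicate 1 and 0.236 without it, so replicate 1 itself widened that limit. With a minimum of 100 CPM in place of 10 CPM, 19 members in place of 69 were detected in every library. The median SD of the members was between 0.603 and 1.19 with each library left out in turn, and was lowest without replicate 1. Members higher in O numbered 0 to 10 with each library left out, and the 10 were seen without replicate 4. Members more than 4 times above the naked mole-rat range in guinea pig numbered 0 to 1, and the 1 was Rps27a, without replicate 1. Members below that range numbered 6 with a limit of 2-fold. They numbered 0 after guinea pig values were divided by the median ratio of shared symbols, under which Rpl6 no longer passed. No share of all shared symbols was set beside these counts, so they do not compare the members with other genes. The causes were not tested.

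Over all entries, no filter on low counts gave 64 calls higher and 2 lower in O, and DESeq2 gave 68 and 3, against 0 and 0 in edgeR as reported. With a library left out, calls numbered 154 and 8 (without replicate 2), 206 and 4 (without replicate 3), 139 and 355 (without replicate 4), and 3 and 1 (without replicate 5). These fits compare a lone library, assumed to vary like the others, with 2. The numbers after the letters do not show a shared source: deviations of Y1 and O1 correlated at 0.041. A replicate block by number gave 0 members, with 56 entries higher and 0 lower in O.

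TMM scaling moved the median log2 ratio of replicate 1 to the other libraries from 0.034 to -0.295 for all entries (-0.088 with DESeq2 size factors) and from 1.88 to 1.55 for the members, so the members stayed above all entries. The planned search of promoters was not run. In a library of 13512223 counts, 3 counts are 0.222 CPM, which limits statements on Rpl3l and Rpl10l.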

Other observations

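Genes that build or regulate ribosomes were set beside the ribosomal protein genes, without a test of the difference. The 29 ribosome assembly factors summed to 3386 CPM in replicate 1 and to 2995 to 3558 CPM in replicates 2 to 5, and 12 of the 29 were highest in replicate 1, beside 37.8% of all entries. The 9 genes of RNA polymerase I and its factors, which make the precursor of ribosomal RNA, summed to 507 CPM in replicate 1 and to 366 to 425 CPM in the others. The 11 regulators summed to 1037 CPM in replicate 1 and to 864 to 953 CPM in the others, with a median log2 ratio of 0.62, and 5 of the 11 were highest in replicate 1. Larp1, which binds the 5′ TOP element, was at 286 CPM in replicate 1 and at 55.6, 58.8, 76.1 and 142 CPM in replicates 2 to 5, while its relative Larp1b was at 124 CPM and at 224, 271, 297 and 135 CPM. Mtor, the kinase of mTORC1, was at 190, 177, 140, 144 and 233 CPM.

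The elongation factors, whose mRNAs also carry a 5′ TOP element in mammals, differed among themselves. Eef1a1, which brings the charged tRNA, was at 7038, 5998, 6834, 6123 and 7524 CPM in replicates 1 to 5 and at 1500 CPM in guinea pig. Eef2, which moves the ribosome along, was at 2403, 332, 381, 431 and 873 CPM and at 833 CPM in guinea pig. Replicate 1 stood far above the others for Eef2 and within their range for Eef1a1. The other elongation factors listed went with Eef2. They were highest in replicate 1, at 2.80 to 4.74 times the mean of replicates 2 to 5, beside 1.06 times for Eef1a1.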
